A study of Mus musculus with 4 samples.

Results

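Trp53, the gene for the transcription factor p53, and 8 of its target genes were followed in single mouse embryonic stem cells (mESC). The 9 genes were picked by symbol from the 32285 genes of the matrix, by a rule that uses no measured level but with earlier results of these data known: Trp53, Cdkn1a, Mdm2, Ccng1, Bax, Bbc3, Phlda3, Trp53inp1 and Zmat3. The cells came from the male line E14tg2a.4 (WT) and from a gene-trap line of it, CG0630, in which 1 copy of the splicing gene Srrm2 is truncated (Srrm2 hKO, heterozygous knockout). The labels list 4 samples, with 2 per line, grown with LIF, for which the labels give 24 h or 72 h in serum-free medium and the study's methods another length, so the time per sample is not known. The mutant is a single gene-trap line. Droplet 3′ sequencing gave counts of unique molecular identifiers (UMIs) in a single joint matrix. Each barcode there shows which of libraries 1 to 4 it came from, and nothing ties a library to a labelled sample. Libraries keep their numbers below, Srrm2 hKO was not compared with WT, and no p-value was computed.

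p53 is held at a low protein level by MDM2, a ubiquitin ligase that is itself encoded by a p53 target gene, which closes a negative feedback loop. Stress that frees p53 from MDM2 lets it bind its response elements and raise genes that stop the cell cycle, repair damage or start apoptosis. The regulation of p53 acts largely on the protein, so the level of the Trp53 transcript is not a measure of p53 activity.

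A cell filter rebuilt from the study's methods left 8118, 8514, 7893 and 7464 cells in libraries 1 to 4, 31989 of 41142 barcodes, a total somewhat above the one the study states, with 166839268 to 200180473 UMIs per library. Only 160 of 40980 barcode sequences occurred in more than 1 library. Levels are given in CPM, the UMIs of a gene per 1000000 UMIs of the cells summed, with exact 95% Poisson intervals that cover counting error only. A 3′ UMI count has no length term, so CPM values of different genes can be set side by side. The pluripotency genes Pou5f1 and Sox2 were present in every library, at a summed 970 to 1266 CPM, whereas the trophectoderm and primitive endoderm lists summed to at most 3.18 CPM and 1.33 CPM.

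Promoter sequences of 7 of the 9 genes were at hand, as RefSeq windows (GRCm38.p6) from 250 bases before to 50 bases after a transcript start. The p53 consensus, 2 half-sites in a row, was sought on both strands with at most 1 mismatch and a spacer of at most 1 base, to show which members carry such a sequence close to their start. It occurred in 36 of 32851 windows (0.11%), and among the members in Cdkn1a and Ccng1. The stretches around both matches follow, 5′ to 3′ on the strand of the gene, with the matched bases in capitals.
Cdkn1a, chr17:29090829-29090968, plus strand: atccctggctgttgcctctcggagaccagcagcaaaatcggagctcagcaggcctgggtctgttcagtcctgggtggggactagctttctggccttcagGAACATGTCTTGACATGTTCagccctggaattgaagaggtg
Ccng1, chr11:40755397-40755536, minus strand: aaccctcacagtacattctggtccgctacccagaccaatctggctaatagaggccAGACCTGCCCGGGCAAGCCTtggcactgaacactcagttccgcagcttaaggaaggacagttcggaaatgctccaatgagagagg
The Cdkn1a match ended 32 bases before the RefSeq start of its window (position 29090979). The Ccng1 match lay 176 bases before that of its own window (40755286). The 7 genes had 10 windows in all, so some have more than 1 start, and distances to other starts were not measured. Each carried 1 mismatch and no spacer. A single half-site was far less selective, with 8.36% of all windows and 5 members (Trp53, Cdkn1a, Mdm2, Ccng1 and Bax). These matches describe letters in a window, and response elements further away, as in introns, were not searched.

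Trp53 itself (ENSMUSG00000059552, chromosome 11, positions 69580359 to 69591873, plus strand, GRCm38) was among the more abundant members. Its levels in libraries 1 to 4 were 375, 413, 368 and 348 CPM. The highest and lowest libraries differed 1.19-fold. Bax, which encodes a pore-forming protein of the mitochondrial outer membrane, was also abundant and even, at 537, 630, 567 and 543 CPM in libraries 1 to 4, a range of 1.17-fold. Bax (chromosome 7, 45461697 to 45466898, minus strand) overlaps the same-strand gene Gm45808, which is not a row of the matrix.

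The remaining 7 targets were all lower than Trp53 and less even. Cdkn1a (chromosome 17, 29090976 to 29100727, plus strand), which encodes the cyclin-dependent kinase inhibitor p21, had levels of 32.2 (31.4 to 33.1), 27.0 (26.3 to 27.7), 52.4 (51.3 to 53.4) and 23.3 (22.6 to 24.0) CPM in the same order of libraries. Library 3 stood above the others, and the range of 2.25-fold was the widest of the 9 members. Mdm2 (chromosome 10, 117688875 to 117710758, minus strand) was at 33.7, 52.0, 49.3 and 47.7 CPM in libraries 1 to 4. Ccng1 (chromosome 11, 40748552 to 40755311, minus strand), the cyclin G1 gene, was at 50.4, 83.4, 78.1 and 91.8 CPM. For both, library 1 was low and the other libraries lay close together.

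Phlda3 (chromosome 1, 135766119 to 135769136, plus strand), whose product restrains AKT at the membrane, was at 31.2, 51.3, 60.3 and 58.5 CPM in libraries 1 to 4. Bbc3 (chromosome 7, 16308393 to 16318205, plus strand), which encodes the pro-apoptotic BH3-only protein PUMA, was at 27.0, 28.8, 32.3 and 38.2 CPM. Library 1 was again the lowest for both genes. Trp53inp1 (chromosome 4, 11156431 to 11174379, plus strand), an autophagy and stress gene, was at 22.9, 34.2, 27.7 and 32.4 CPM. Zmat3 (chromosome 3, 32334792 to 32366014, minus strand), which encodes a zinc finger protein that binds RNA, was at 24.0, 43.4, 26.2 and 41.0 CPM. These 2 genes were higher in libraries 2 and 4 than in libraries 1 and 3.

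**Figure D1:**
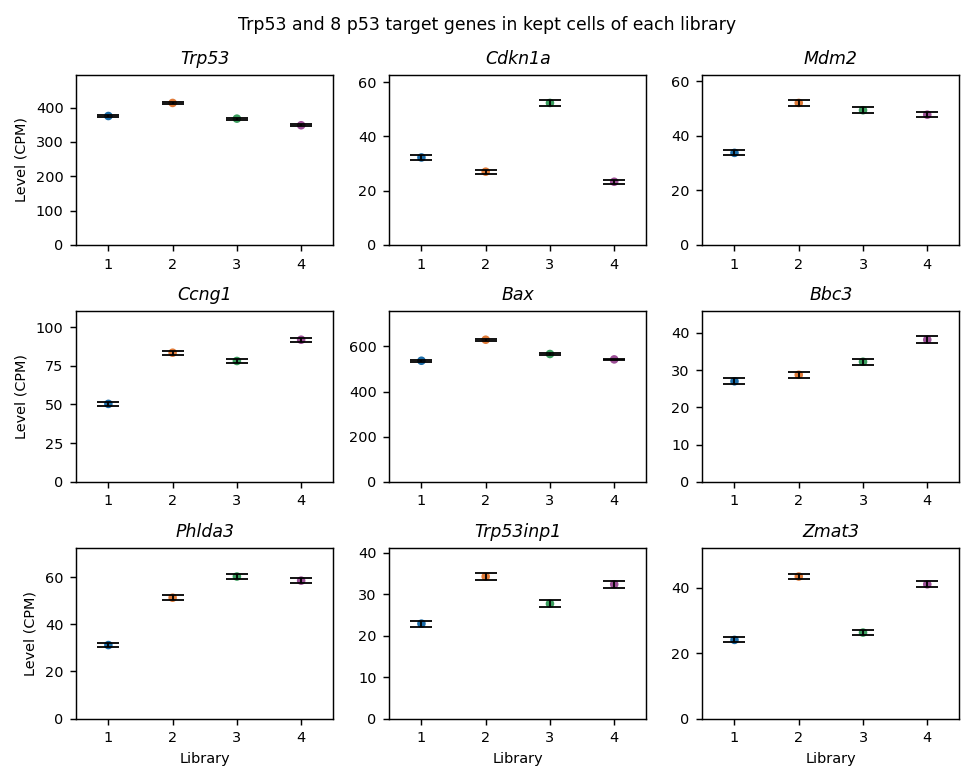
Level of each member in the kept cells of libraries 1 to 4, in CPM on linear axes that start at 0, with exact 95% Poisson intervals (caps, often within the point). Trp53 and Bax are nearly level, Cdkn1a is highest in library 3 at 52.4 CPM, and 7 of the 9 genes are lowest in library 1.

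In all, 5 of 9 members (Cdkn1a, Phlda3, Ccng1, Zmat3 and Mdm2) ranged at least 1.5-fold over the libraries, where 41.0% of 11099 tested genes did so. The share of members thus lay near that of all genes, and their median range of 1.54-fold compared with 1.42-fold over all tested genes. Library 1 was lowest for 7 of 9 members, compared with 42.7% of all tested genes. The 7 targets other than Bax summed to 221 CPM in library 1 and 320, 326 and 333 CPM in libraries 2 to 4. Without library 1, 2 members (Cdkn1a and Zmat3) ranged at least 1.5-fold, where 28.3% of all tested genes did.

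A wider list of 32 p53 target genes, chosen with earlier results of these data known, had 20 of 30 tested genes at a range of at least 1.5-fold, with a median of 1.73-fold. Over all 11099 tested genes, 41.0% had such a range, with a median of 1.42-fold. The most abundant gene of the list, Rps27l, a ribosomal protein paralogue, was at 818, 1400, 972 and 1569 CPM in libraries 1 to 4. Aen, which encodes an apoptosis-associated nuclease, lay between 67.9 and 100.2 CPM, and the nuclear body gene Pml between 41.2 and 72.0 CPM. Ei24 was nearly even, between 63.1 and 71.9 CPM. Ranges above 3-fold were seen for Plk2, a polo-like kinase gene (4.19 to 17.4 CPM), Perp, a desmosome-associated gene (5.82 to 29.99 CPM), Zfp365 (2.73 to 8.34 CPM) and the stress cytokine gene Gdf15 (1.97 to 15.5 CPM). Gdf15 was highest in library 1. Plk2 and Perp were highest in library 3, as were Cdkn1a and Phlda3 of the members, and 20.3% of all tested genes. Most genes of the wider list were highest in another library.

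The regulator list holds genes that act on p53 and the p53 family genes Trp63 and Trp73. Of its 15 tested genes, Trp73 included, 6 ranged at least 1.5-fold, near the 41.0% of all tested genes. Rpl11 and Rpl5, ribosomal proteins that can bind MDM2, were at 3169 to 3787 CPM and 1907 to 2161 CPM, and the coactivator gene Crebbp at 52.9 to 65.9 CPM. Usp7, the deubiquitinase of MDM2 and p53, was at 156, 263, 155 and 229 CPM in libraries 1 to 4. Cdkn2a, whose ARF product inhibits MDM2, was at 6.83, 8.61, 38.1 and 11.3 CPM, gene-level values that do not single out ARF. Library 3 therefore held the highest level of both Cdkn2a and Cdkn1a. In the Bcl2 family, 3 of 8 tested genes ranged at least 1.5-fold, also near the share of all tested genes (41.0%). Mcl1 was the most abundant there (179 to 228 CPM), followed by Bak1 (26.0 to 33.3 CPM), Bcl2l11 (up to 36.5 CPM) and Bad (20.3 to 23.4 CPM), and Bok ranged 3.46-fold. All 4 tested genes of the amino acid stress response list ranged at least 1.5-fold, where 41.0% of all tested genes did. They were highest in library 1, where Asns reached 507 CPM, compared with 118 to 321 CPM elsewhere. The share of all tested genes that were highest in library 1 was not computed.

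Whether the targets rise together in the same cells was examined with a split of each cell's UMIs. From each cell 5000 UMIs were drawn; a drawn UMI of a gene put the cell in the class with that gene, and levels were then measured in the UMIs that had not been drawn. A gene was counted as higher when the 95% interval of the ratio lay above 1 in every library. Cells with a drawn Cdkn1a UMI numbered 1229, 1025, 1151 and 725 in libraries 1 to 4. Their undrawn Cdkn1a level was 57.9, 57.2, 195.7 and 77.7 CPM, compared with 26.6, 22.4, 27.2 and 17.2 CPM in the other cells.

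With Cdkn1a as the class, 6 of the 8 other members were higher in every library (Mdm2, Ccng1, Bbc3, Phlda3, Trp53inp1 and Zmat3) and 0 were lower, where 2.24% of 10677 tested genes were higher and 1.73% lower. Mdm2 was at 48.5 compared with 30.5 CPM in library 1, 82.9 with 47.2 in library 2, 113.7 with 36.7 in library 3 and 82.1 with 43.4 in library 4, log2 ratios of 0.67, 0.81, 1.63 and 0.92. Phlda3 gave log2 ratios of 0.86, 0.78, 1.70 and 0.82, and Trp53inp1 0.71, 0.75, 1.12 and 0.90. Ccng1 followed with 0.51, 0.49, 1.24 and 0.64, then Bbc3 with 0.54, 0.48, 0.61 and 0.51. Zmat3 gave 0.40, 0.30, 0.80 and 0.24, the smallest of the 6 in libraries 1, 2 and 4, while Bbc3 was the smallest in library 3. Library 3 had the largest ratio for each of these genes.

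Bax and Trp53 were not among these 6. Bax gave log2 ratios of 0.06, 0.04, -0.01 and 0.04 between cells with and without a drawn Cdkn1a UMI, with the interval above 0 in libraries 1, 2 and 4 and spanning 0 in library 3. Trp53 gave -0.03, -0.03, -0.24 and -0.01, so that its transcript was lower in the Cdkn1a class of library 3 and its intervals spanned 0 in the other libraries.

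Other members were then used as the class. The number of other members that were higher in every library was 7 for Mdm2 (2.29% of all tested genes), 6 for Ccng1 (4.24%), 6 for Bbc3 (1.60%), 6 for Phlda3 (4.95%), 7 for Trp53inp1 (2.51%) and 7 for Zmat3 (0.674%). The classes with 7 included Bax, whose lowest log2 ratio over the libraries was 0.05 for Mdm2, 0.05 for Trp53inp1 and 0.03 for Zmat3. With Bax as the class the number was 0 (0.403%), and with Trp53 it was 0 (1.99%). With Trp53 as the class, Cdkn1a gave log2 ratios of -0.07, -0.12, -1.07 and -0.19 in libraries 1 to 4, so the difference was large in library 3 only, and -0.25 there within the largest cluster. By the interval rule, no member was lower in every library in any of the 9 classes, Cdkn1a in the Trp53 class included. The share of all tested genes that were lower was 3.76% for Trp53, 1.73% for Cdkn1a, 1.13% for Mdm2 and 2.14% for Ccng1. For Bax it was 0.206%, for Bbc3 0.927%, for Phlda3 3.64%, for Trp53inp1 1.78% and for Zmat3 0.440%.

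**Figure D2:**
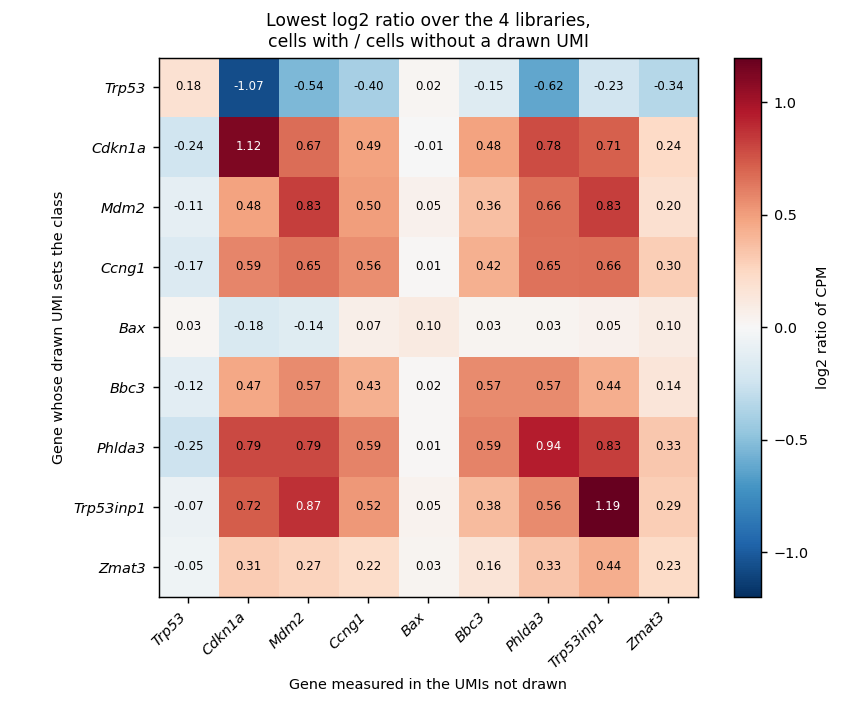
Lowest log2 ratio over the 4 libraries of the undrawn level (CPM) of each gene (columns) between cells with and without a drawn UMI of the gene in the row. The 7 targets other than Bax form a block of ratios above 0, from 0.14 (Bbc3 class, Zmat3) upwards, while the Bax column stays between -0.01 and 0.10.

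Other genes moved with the Cdkn1a class as well. The keratin gene Krt8 gave log2 ratios of 0.46, 1.39, 1.96 and 1.86 in libraries 1 to 4, and Pou5f1 -0.04, -0.03, -0.38 and -0.10. Their part in the ratios of the members was not tested, but the measure was repeated within the largest cluster of each library (the clusters are described further on). With Cdkn1a as the class, 6 members were again higher in every library, where 0.681% of 9687 tested genes were. The log2 ratio of Mdm2 was then 0.60, 0.68, 0.42 and 0.89 in libraries 1 to 4, and that of Phlda3 0.74, 0.74, 0.68 and 0.69. The library 3 ratio of Mdm2 was 1.63 over all kept cells and 0.42 within its largest cluster. Across cells, pairwise Pearson correlations of log counts at 5000 UMIs were weak, which is a description over 7464 to 8514 cells per library that share library and depth. The median over the 36 pairs was 0.055, 0.053, 0.081 and 0.045 in libraries 1 to 4, and the highest was 0.156, 0.152, 0.329 and 0.168.

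The genes most like Cdkn1a by the lowest ratio over the 4 libraries were Acta2, Cryab, Anxa1, Tagln, Plk2, Btg2, Ddit4l, Perp, Cald1 and Anxa5. Acta2, the smooth muscle actin gene, gave log2 ratios of 4.52, 2.56, 4.03 and 3.28, and the small heat shock gene Cryab 2.13, 2.85, 3.44 and 3.25. Plk2 (1.72, 1.37, 2.68 and 1.83), the antiproliferative gene Btg2 (1.202, 1.11, 2.13 and 1.21) and Perp (1.101, 1.06, 2.14 and 1.22) are on the wider target list, of which 12 of 29 tested genes were higher in every library and 0 lower. Of all 10677 tested genes, 2.24% were higher and 1.73% lower, shares that also apply to the lists below. At the other end, Ccdc106, Cyb5rl, Pim2, Stk26 and Zfp605 were lower in the Cdkn1a class, with log2 ratios between -0.54 and -0.24. Among the regulators of p53, 1 of 14 tested genes was higher, Cdkn2a, with 0.60, 0.68, 3.28 and 1.43. No gene of 8 in the Bcl2 family list was higher or lower in every library. Of 4 tested stress response genes, 0 were higher and 1 was lower, Atf4, with log2 ratios of -0.07, -0.19, -0.06 and -0.10 (named after its values were seen).

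Cells were clustered with the members and the wider target list taken out of the variable genes, so that the clusters do not use these genes. The regulator, Bcl2 family and stress response lists were not taken out, nor were genes on no list that vary with the targets. Cluster 1 (13445 cells) held most of libraries 1 and 3, cluster 2 (7051 cells) most of library 2, and cluster 4 (3600 cells) lay almost wholly in library 4. Cluster 3 (5144 cells, libraries 2 and 4) was led by Spon1 and Fgf5 and had the formative genes high, at 2085 CPM summed compared with 720 in cluster 1. Cluster 5 (2601 cells, mainly libraries 1 and 3) was led by Gzme, Ctla2a and Acta2 and had the keratin and contractile list at 2575 CPM, compared with 13.5 in cluster 1. Each cluster of at least 100 cells was set against the largest cluster of the same library. The largest was cluster 1 in libraries 1 and 3, cluster 2 in library 2 and cluster 3 in library 4. In library 4 the lead was small, with 3591 cells in cluster 3 and 3580 in cluster 4.

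Over the 5 contrasts and 9 members, 45 pairs in all, 16 were at least 1.5-fold higher and 4 at least 1.5-fold lower. In library 3, cluster 5 had 7 members higher than cluster 1, where 23.6% of 11929 tested genes were. Cdkn1a had 107 CPM in the former and 26.2 CPM in the latter, a ratio of 4.09 (3.92 to 4.28). Phlda3 was at 119 and 31.6 CPM (ratio 3.78), Ccng1 at 128 and 54.1 CPM (2.36) and Mdm2 at 77.5 and 35.3 CPM (2.19). Bbc3 (1.90), Trp53inp1 (1.59) and Zmat3 (1.55) were higher by less, and Bax was at 0.90.

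In library 1, cluster 5 had only 3 members higher than cluster 1, where 19.5% of 11531 tested genes were. These were Phlda3 (56.2 and 28.9 CPM, ratio 1.94), Bbc3 (44.8 and 25.5 CPM, 1.76) and Ccng1 (76.9 and 48.0 CPM, 1.60). Cdkn1a was level, with 30.8 CPM compared with 32.2 CPM (ratio 0.96, 0.86 to 1.06). Set directly against each other, the cluster 5 cells of library 3 had 3.47 times the Cdkn1a level of those of library 1 (3.13 to 3.86), and more Phlda3 (2.12), Mdm2 (2.06), Trp53inp1 (1.67) and Ccng1 (1.66). The few cluster 5 cells of libraries 2 and 4 (20 and 77 cells, under the minimum of 100) had Cdkn1a at 269 (224 to 321) and 208 (188 to 229) CPM, so library 1 was the only library with a low level in this cluster. The cluster 5 cells also differed in other markers, with Krt8 at 246, 1329, 723 and 2039 CPM and Pou5f1 at 792, 161, 549 and 248 CPM in libraries 1 to 4. Library 1 had the lowest Krt8 and the highest Pou5f1 level, and their part was not tested. Of all tested genes, 9.73% differed at least 1.5-fold between these cells. In cluster 1, by contrast, all 9 members lay between 0.81 and 1.13 for library 3 over library 1, where 6.66% of tested genes differed at least 1.5-fold.

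Trp53 went the other way in cluster 5. It was at 239 CPM compared with 387 CPM in cluster 1 of library 1 (ratio 0.62), and at 257 CPM compared with 421 CPM in library 3 (0.61), where 14.2% and 10.9% of tested genes were at least 1.5-fold lower. Cdkn2a in cluster 5 had 11.6, 295, 93.7 and 156 CPM in libraries 1 to 4, with library 1 far below the others. The cells of cluster 5 were deeper than those of cluster 1 (median 24274 and 18297 UMIs). The fibroblast list of 4 genes summed to 26.6 CPM there, compared with 0.185 CPM in the larger cluster. That sum rested on Col1a1 and Col1a2, since Lum and Dcn had at most 2 and 14 UMIs in the kept cells of any library. The part of these differences in the result was not tested.

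Between the formative cluster 3 and cluster 2 of library 2 or cluster 4 of library 4, only Phlda3 and Ccng1 differed at least 1.5-fold. This share of the members was near that of all tested genes. In library 2 the formative cells had Phlda3 at 74.5 CPM, compared with 44.8 in cluster 2 (ratio 1.66), and Ccng1 at 115 compared with 74.9 CPM (1.54), where 16.2% of 12032 tested genes were higher. Trp53 was lower, at 317 and 438 CPM (0.72), and Cdkn1a at 22.2 and 27.5 CPM (0.81). In library 4 the contrast of cluster 4 over cluster 3 had Phlda3 at 0.55 and Ccng1 at 0.61, where 17.6% of 11946 tested genes were lower, Trp53 at 1.498 and Cdkn1a at 0.87. At least 1.5-fold higher there were 9.23% of tested genes and 0 members. Between libraries 4 and 2, the cluster 3 levels of the members differed by a ratio of 0.86 to 1.24, and 3.89% of tested genes reached 1.5-fold.

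The 155 cells of cluster 2 in library 4 formed a further pattern. Relative to cluster 3 of that library they had Trp53inp1 at 93.8 and 29.1 CPM (ratio 3.22), Mdm2 at 117 and 48.2 CPM (2.42), Cdkn1a at 39.3 and 22.1 CPM (1.78) and Trp53 at 446 and 281 CPM (1.59), where 12.6% of 10936 tested genes were higher. Phlda3, Bbc3, Ccng1 and Bax lay between 0.99 and 1.07, Zmat3 was at 1.35, and 0 members were at least 1.5-fold lower, where 20.1% of tested genes were. These cells had Malat1, a nuclear RNA, at 8181 CPM, compared with 5688 CPM in cluster 3, and its part was not tested. By naive markers they were closer to cluster 4 of that library (1713 and 1541 CPM summed) than to cluster 3 (347 CPM). In cluster 4, Phlda3, Ccng1, Zmat3 and Bbc3 were at 39.4, 67.3, 37.2 and 30.5 CPM, compared with 76.2, 115, 58.3 and 44.1 CPM in the 155 cells. Mdm2, Trp53inp1 and Cdkn1a were at 40.2, 31.0 and 19.2 CPM in cluster 4, while Trp53 was at 421 CPM, near the 155 cells.

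**Figure D3:**
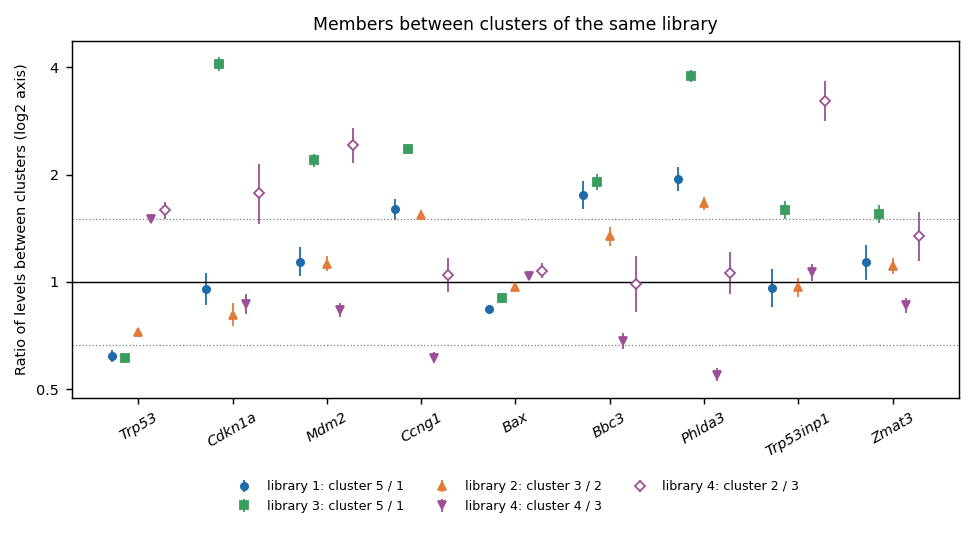
Ratio of each member's level between a cluster and the largest cluster of the same library, on a log2 axis, with exact 95% intervals, and dotted lines at 1.5-fold either way. Cdkn1a reaches 4.09 in cluster 5 of library 3 and 0.96 in cluster 5 of library 1, while Trp53 is near 0.6 in both.

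A small group stood out for the p53 targets. Cluster 6 held 96 cells (12, 17, 14 and 53 in libraries 1 to 4) and was led by Aqp3, Bhlhe41, S100a13 and Sct, and it was singled out after its values were seen. Its naive markers summed to 1458 CPM (966 to 1969 CPM by library), near the 1540 CPM of cluster 4, and its formative markers to 446 CPM. Its Pou5f1 level was 441 CPM and its Nanog level 56.1 CPM, below the 769 and 99.4 CPM of cluster 4. None of its leading genes is on a marker list, and it is called by its number. All values of it against the remaining cells are a description.

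In cluster 6, 7 of 9 members were at least 1.5-fold above the other cells in every library, where 6.88% of 11099 tested genes were, and 0 were below, where 8.02% were. Mdm2 was at 467, 404, 443 and 279 CPM in libraries 1 to 4, compared with 33.4, 51.6, 49.0 and 46.8 CPM in the other cells, which are ratios of 13.97, 7.82, 9.05 and 5.95. Trp53inp1 was at 348, 328, 429 and 277 CPM, compared with 22.6, 33.9, 27.4 and 31.4 CPM. Both genes were at least 5.95 times higher in each library.

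Phlda3 ratios were 9.71, 5.33, 7.04 and 3.43 in libraries 1 to 4, and Ccng1 ratios 5.67, 4.40, 4.32 and 2.71. Zmat3 (5.95, 3.25, 5.20 and 2.46), Cdkn1a (6.65, 2.44, 2.87 and 2.48) and Bbc3 (3.81, 2.61, 6.01 and 2.29) were higher as well, on 13 to 68 UMIs per library. Trp53 was not, with ratios of 0.70, 1.08, 1.21 and 0.93, nor was Bax, with 1.15, 1.06, 0.68 and 0.90. Library 4, with the most cells of the cluster, gave the lowest ratio for 6 of the 7 higher genes, Cdkn1a being the exception.

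**Figure D4:**
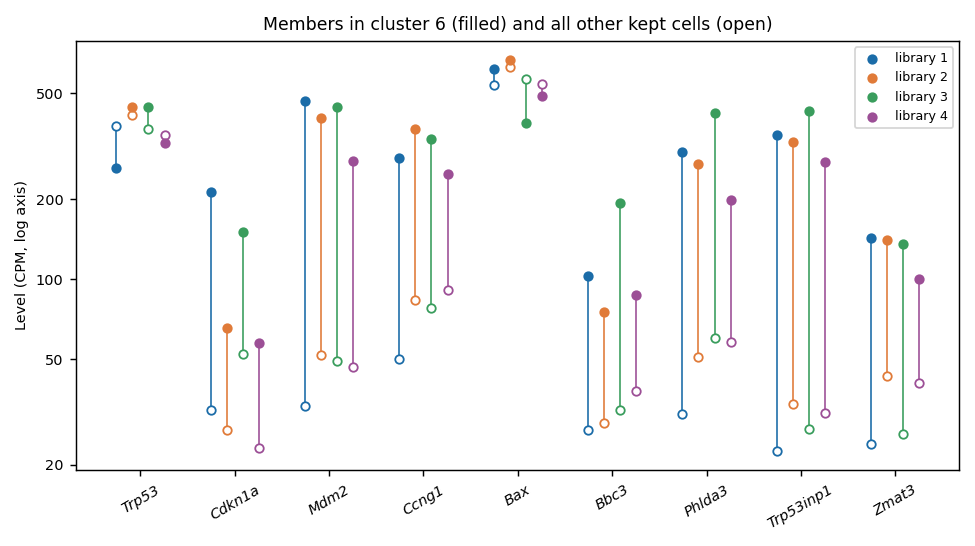
Level of each member in cluster 6 (filled points) and in all other kept cells (open points) of libraries 1 to 4, in CPM on a log axis, joined by a line per library. For 7 genes every filled point lies above its open point by at least 2.29-fold, while Trp53 and Bax show no common direction.

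Of 30 tested genes of the wider target list, 13 were at least 1.5-fold higher in cluster 6 in every library, beside the 6.88% of all tested genes. The gene Tigar was lower in every library (named after its values were seen), and the other 16 passed in neither direction. Here the list's median ratio was 2.66, compared with 0.873 over all tested genes. Btg2 ratios were 20.6, 7.95, 12.9 and 4.56, Perp ratios 17.9, 13.1, 9.12 and 3.92, and Plk2 ratios 23.0, 8.40, 6.20 and 6.96. Rps27l, the most abundant gene of the list, was at 1.248, 0.92, 1.22 and 0.70. None of the 8 tested Bcl2 family genes and none of the 4 tested stress response genes was higher or lower by this measure. Of 15 tested genes of the regulator list, 2 were higher in every library and 0 lower, both named after their values were seen. Mdm4, the paralogue and partner of MDM2, had ratios of 4.14, 4.51, 4.06 and 3.33. Trp73, a gene of the p53 family, rested on only 2, 3, 5 and 6 UMIs in cluster 6 of libraries 1 to 4.

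Of the 35 genes with a p53 consensus match in a promoter window, as printed above for Cdkn1a and Ccng1, 9 were tested here and 5 of them were at least 1.5-fold higher in cluster 6 in every library, beside 6.88% of all tested genes. Of the 5, 2 are the members Cdkn1a and Ccng1, already described as high in this cluster. The others were 1700007K13Rik (18.8, 9.56, 16.3 and 4.67), Ppfibp2 (3.38, 2.63, 2.02 and 4.42) and Gtse1 (2.89, 1.52, 2.64 and 2.32), named after their values were seen. Rps27l also carries a match and was not among the 5.

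The cells of cluster 6 differed from the rest in their RNA as well. All 96 lay below their library's median UMI count, with a median of 11676 UMIs. Their median mitochondrial share per cell was 0.289%, compared with at least 3.51% over the kept cells of the libraries, and ribosomal protein genes took 37.7% of their UMIs. The low mitochondrial share was not common to all libraries, since the summed UMIs of the cluster were 3.96% mitochondrial in library 1 and 1.39%, 0.79% and 0.74% in libraries 2 to 4. Malat1 was at 11596 to 15936 CPM. The part of these differences in the levels of the members was not tested. None of the 96 exceeded 2 times its library's median UMI count.

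The sum of the 7 targets other than Bax was also read per cell at 5000 UMIs. At least 8 UMIs were found in 0.665% of cells in library 1, 1.36% in library 2, 3.18% in library 3 and 1.73% in library 4. Poisson counts with the observed means give 0.0034% to 0.0482%. By cluster, 49.0% of cluster 6 (38.6% to 59.4%), 9.50% of cluster 5 (8.40% to 10.7%) and 0.483% of cluster 1 (0.373% to 0.616%) reached this sum. These are binomial intervals over cells pooled from the 4 libraries, and they leave out the spread between libraries. The cluster 5 share was uneven, at 2.26%, 35.0%, 10.4% and 20.8% in libraries 1 to 4 (10 of 443, 7 of 20, 214 of 2061 and 16 of 77 cells), and 6.11% without library 3, a split by library that was chosen after seeing the data. In cluster 6 the share was 41.5% to 64.3% by library. Of the 251 such cells in library 3, 214 belonged to cluster 5.

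Single genes differed in how unevenly they were spread. The Fano factor (variance over mean at 5000 UMIs, near 1 for Poisson counts) of Cdkn1a was 1.22, 1.39, 3.68 and 1.4995 in libraries 1 to 4, and that of Mdm2 1.23, 1.47, 1.75 and 1.49. Zmat3 was near 1, at 1.00, 1.07, 1.05 and 1.03, and the median of all tested genes was 1.02 to 1.03. Values above 1.1 in every library were found for 5 members (Cdkn1a, Mdm2, Ccng1, Phlda3 and Trp53inp1) and for 5.86% of all tested genes. In library 3 a Cdkn1a UMI was found in 14.6% of cells at this depth (38.1% before thinning), where Poisson counts with that mean give 23.8%. Background from free RNA was not measured, and UMIs of all 9 genes occurred in each of the 7 clusters.

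Because p21 blocks the cell cycle, the members were compared between cell cycle classes. S-high cells were in the top 25% of their library for 14 S-phase genes and not for 14 G2/M genes, G2/M-high cells the reverse, and cells low in both were under both medians. In every library, 3 of 9 members (Mdm2, Phlda3 and Trp53inp1) were at least 25% above or 20% below the cells low in both, where 6.55% of 10154 tested genes did. All 3 were lower in the cycling classes, a direction in which 0.975% of tested genes passed for G2/M-high and 0.867% for S-high cells. No member was higher in every library, where 3.35% and 2.20% of tested genes were.

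Mdm2 in G2/M-high cells was at 29.1, 49.4, 36.5 and 40.5 CPM in libraries 1 to 4, compared with 43.6, 66.7, 101.0 and 63.0 CPM in cells low in both, ratios of 0.67, 0.74, 0.36 and 0.64. Phlda3 ratios for G2/M-high cells were 0.61, 0.75, 0.34 and 0.64, and Trp53inp1 ratios 0.75, 0.79, 0.58 and 0.72. For S-high cells Mdm2 (0.75, 0.77, 0.40 and 0.72) and Trp53inp1 (0.74, 0.79, 0.49 and 0.78) passed in every library, while Phlda3 did not, at 0.86 in library 2. Cdkn1a was far apart only in library 3, where it was at 158 CPM in cells low in both, 24.4 CPM in S-high and 33.5 CPM in G2/M-high cells. In libraries 1, 2 and 4 its ratios lay between 0.57 and 0.95. Trp53 ratios lay between 0.97 and 1.255, with the highest in library 3.

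**Figure D5:**
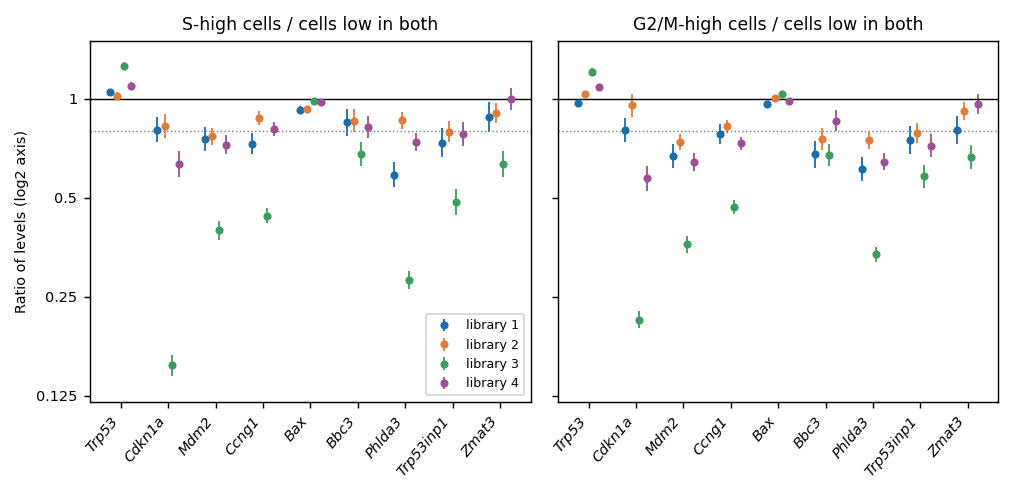
Ratio of each member's level in S-high cells (left) and G2/M-high cells (right) over cells low in both lists, on a log2 axis, with exact 95% intervals, for libraries 1 to 4, and a dotted line at 0.8. Library 3 is lowest for most targets, with Cdkn1a at 0.15 and 0.21, while Bax stays between 0.93 and 1.03.

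Within the largest cluster of each library, 0 of 9 members passed the same limit, where 5.29% of 9143 tested genes did. There, Mdm2 in G2/M-high cells was at 0.74, 0.81, 0.87 and 0.76 of its level in cells low in both, and Phlda3 at 0.69, 0.84, 0.79 and 0.68. Cdkn1a had no common direction there, with G2/M-high ratios of 0.94 (0.86 to 1.04), 1.19 (1.09 to 1.30), 1.253 (1.11 to 1.41) and 0.50 (0.43 to 0.57) in libraries 1 to 4, and an S-high ratio of 0.97 in library 3. The largest cluster of library 4 was the formative cluster 3, so its ratios come from another cell state than those of libraries 1 to 3. G2/M-high cells were also deeper, with a median of 22013 to 26189 UMIs compared with 16128 to 19635 in cells low in both, and the part of depth was not tested.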

How the data were processed

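The deposited file holds raw UMI counts per gene and barcode. The authors aligned Chromium 3′ v3 libraries to mm10 with Cell Ranger 6.1.2 (submitters' processing notes) and joined the 4 libraries with its aggregation step, which subsamples reads to even out depth, so differences in depth were reduced before deposit. No normalised values were used.

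Cells were kept with UMIs and detected genes at or above the library mean minus 1 SD and at most 10% mitochondrial UMIs. Counts were summed per library, cluster or class. Genes with at least 200 counts in every library were tested (50 per cell cycle class). For the classes set by a drawn UMI, the 200 counts were of undrawn UMIs. Between clusters of a library, or between libraries within a cluster, the 200 counts were taken over both groups compared. Since no library is tied to a labelled sample, no replicate error or p-value exists, and the limits are sizes of 1.5-fold (1.25-fold for the cell cycle). A count of 0 allows 3 counts, or 0.0150 to 0.0180 CPM.

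For clusters, 2000 variable genes less 15 that were members or on the wider target list, 20 components, 20 neighbours and leidenalg 0.10.2 at resolution 0.2 were used. Leiden clustering stood in for the Seurat clustering of the study, without batch correction. No doublet caller was run; 1615 cells above 2 times their library's median UMIs were left out as an alternative. Interval code was tested on simulated data. Python 3.11.15, scipy 1.17.1 and R 4.3.3 were used, with positions from GENCODE M21 (GRCm38) and promoters from RefSeq.

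The members, lists and limits were chosen with earlier results of these data known. Named were all members, the 4 most abundant genes of the wider target, regulator and Bcl2 lists with any of at least 3-fold range and 200 counts per library, and the 10 genes higher and 5 lower that were most like Cdkn1a.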

Additional observations from a re-analysis of the deposited data

How the results depend on the processing

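The 5 members with a range of at least 1.5-fold over the libraries became 4 with median-of-ratios size factors or with mitochondrial and ribosomal genes out of the total, 5 with all barcodes or a mean over cells, 6 without cells above 2 times the median UMIs, and 1 at a limit of 2-fold. Leaving out 1 library at a time gave 2 to 5 members, with 2 without library 1. The 20 of 45 member and cluster pairs at 1.5-fold (16 higher, 4 lower) numbered 20 with p53 genes left among the variable genes (16 higher, 4 lower), 23 without the deepest cells (20 higher, 3 lower) and 6 at 2-fold. Resolution 0.1 gave other contrasts, with 18 of 36 pairs higher and 2 lower. At resolution 0.1 cluster 6 was not separate, and with p53 genes left in, 83 of its 96 cells fell in a cluster of 86. Its 7 higher members, a comparison chosen after seeing the data, numbered 7 with p53 genes left in and 7 without the deepest cells, but neither setting bears on stability: the former clusters on the members, and the latter removes no cell of cluster 6. The 6 members higher with Cdkn1a numbered 6 under 10000 UMIs, another draw, without cluster 6 and without the deepest cells, and 6 to 7 when 1 library was left out (7 without library 3). The 3 members apart by cell cycle class became 2 with the top 10% as the limit and 0 within the largest clusters. No paired analysis was possible because no library number is tied to a labelled sample, so replicate numbers pair nothing. No replicate error is known for any value, free RNA was not measured, and in cluster 6 single genes rest on few UMIs.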

Other observations

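Barcodes that the cell filter removed also carried the targets. Those under the depth limits alone numbered 389, 781, 613 and 840 in libraries 1 to 4, with a median of 1235 to 3516 UMIs. Mdm2 there was at 95.6, 81.0, 101.0 and 84.4 CPM, compared with 33.7, 52.0, 49.3 and 47.7 CPM in kept cells, and Trp53inp1 at 63.3, 63.6, 63.2 and 53.1 CPM, compared with 22.9, 34.2, 27.7 and 32.4 CPM. Both genes were above the kept cells in every library. So were Ccng1, Bbc3 and Zmat3, though some of their intervals overlapped those of the kept cells. Trp53 and Bax were below the kept cells in every library, and Phlda3 in library 4 only (55.5 and 58.5 CPM). Cdkn1a was above the kept cells only in library 1, at 70.8 and 32.2 CPM. Barcodes over the mitochondrial limit, 1028 to 2441 per library, had Bax at 288 to 361 CPM, below the 537 to 630 CPM of kept cells. Zmat3 in these barcodes was at 44.3, 71.6, 33.7 and 66.3 CPM, above the kept cells in all 4 libraries. Trp53inp1 was above the kept cells there as well, at 34.1, 45.8, 37.2 and 49.7 CPM. The share of all genes above the kept cells was not computed for either set of barcodes. No test was made of these values.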
